A study of Mus musculus with 18 samples.

Results

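Male (XY) embryonic stem cells (ESC) were set against male mouse embryonic fibroblasts (MEF) over the 19 autosomes by the methylation of their CpGs. The members are 68762 windows (tiles) of 1 kb on a fixed grid, of 146069 autosomal tiles measured in any of the study's samples. A tile was a member when at least 3 of its CpGs had 5 or more reads in each of the 4 libraries, 2 from XY ESC and 2 from XY MEF, out of 18 libraries in 7 groups. The other groups were XX ESC (n = 4), XX induced pluripotent stem cells (iPSC, n = 2), SSEA1+ and SSEA1- cells taken during reprogramming (n = 2 each, labelled female) and XX MEF (n = 4). DNA was measured by reduced representation bisulfite sequencing, in which a restriction digest keeps short CpG-rich fragments and unmethylated cytosines are converted before sequencing. The labels give cell type and sex but no strain, line, passage or culture medium, and nothing in them ties the 2 libraries of a group to different cultures or animals. The p-values therefore speak only of the spread among these libraries, part or all of which may be technical. Expression was not measured, so the cell types rest on the labels. Just inside the minimum lay 23825 tiles with 3 usable CpGs in their sparsest library, at mean levels of 70.8% and 71.1% in XY ESC and 72.4% and 72.5% in XY MEF. Just outside lay 50492 tiles with 2, at 78.5% and 78.5% in XY ESC and 79.0% and 77.8% in XY MEF.

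Most mammalian CpGs outside CpG islands are methylated in differentiated cells, while CpG islands, which hold many gene promoters, are mostly free of methylation. A small class of CpG-rich promoters does become methylated in somatic tissue, and many of these belong to genes used only in germ cells. Repeated elements, present in many near-identical copies, are another usual site of methylation in somatic cells. Mouse ESC grown under different conditions or with both X chromosomes active can hold less methylation than somatic cells.

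The results below turn on CpG-rich sites that had lost methylation in XY ESC, in recurring sequences and in 25 promoter tiles, and on a few promoters that had gained it. The sequences are shown so that the CpGs behind the values can be seen. They are RefSeq sequences of build GRCm38.p6, while the files are on mm9. Each promoter was therefore placed on the files' own CpG positions by the spacing of its CpGs, and the intervals given here are those mm9 positions, with the bases assumed to be the same in both builds. For promoters, the 250 bases before the annotated gene start are shown 5′ to 3′ on the gene's strand, and capitals mark the CpGs that had 5 or more reads in all 4 libraries. Hormad1, a protein of meiotic chromosome axes, lies at chr3:95363349-95363598 (+ strand). Zglp1, a GATA-like zinc finger protein of germ cells, lies at chr9:20871538-20871787 (- strand). Dmrtb1, a DM-domain factor of spermatogonia, lies at chr4:107356195-107356444 (- strand). Slc25a31, a germ-cell ADP/ATP carrier of mitochondria, lies at chr3:40512543-40512792 (+ strand). Slc6a5, a glycine transporter of neurons, gained methylation and lies at chr7:57165419-57165668 (+ strand). The last sequence holds the run of 7 CpGs that defined the recurring spacing family B below, with these 7 CpGs in capitals. It was read from the promoter of A230004M16Rik on chromosome 11 (+ strand, GRCm38.p6), from base 95 before the gene start to base 1 before it; that promoter was not among those placed on the files.
Hormad1: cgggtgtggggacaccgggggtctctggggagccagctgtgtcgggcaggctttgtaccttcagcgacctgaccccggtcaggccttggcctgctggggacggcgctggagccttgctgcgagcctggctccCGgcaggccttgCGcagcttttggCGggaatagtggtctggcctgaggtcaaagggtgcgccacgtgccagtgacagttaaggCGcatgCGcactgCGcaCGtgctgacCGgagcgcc
Zglp1: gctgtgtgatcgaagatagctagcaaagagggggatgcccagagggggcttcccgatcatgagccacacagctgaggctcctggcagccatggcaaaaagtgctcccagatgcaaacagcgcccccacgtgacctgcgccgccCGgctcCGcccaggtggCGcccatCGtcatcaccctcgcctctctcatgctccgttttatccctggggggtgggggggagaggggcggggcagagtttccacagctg
Dmrtb1: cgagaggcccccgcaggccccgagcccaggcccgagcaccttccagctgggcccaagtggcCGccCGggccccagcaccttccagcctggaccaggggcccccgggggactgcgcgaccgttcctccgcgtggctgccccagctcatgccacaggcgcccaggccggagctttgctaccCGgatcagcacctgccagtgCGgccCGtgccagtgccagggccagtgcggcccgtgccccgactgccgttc
Slc25a31: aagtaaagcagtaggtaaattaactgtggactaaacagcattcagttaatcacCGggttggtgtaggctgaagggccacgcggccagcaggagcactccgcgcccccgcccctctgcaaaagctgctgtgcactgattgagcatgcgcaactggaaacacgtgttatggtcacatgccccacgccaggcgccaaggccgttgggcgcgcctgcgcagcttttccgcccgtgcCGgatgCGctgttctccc
Slc6a5: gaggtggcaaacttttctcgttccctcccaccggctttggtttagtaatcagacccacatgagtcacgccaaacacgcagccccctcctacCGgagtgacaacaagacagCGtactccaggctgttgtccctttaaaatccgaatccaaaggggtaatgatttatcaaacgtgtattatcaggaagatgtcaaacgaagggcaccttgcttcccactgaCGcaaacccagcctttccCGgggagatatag
Family B: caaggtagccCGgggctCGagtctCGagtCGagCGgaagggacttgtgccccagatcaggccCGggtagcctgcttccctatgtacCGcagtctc

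The 4 libraries held 23712140 and 12365786 reads on CpGs in XY ESC and 62920167 and 16125958 in XY MEF, with a median of 72 to 266 reads per tile. XY MEF 1 stood apart: it was the deepest, and 16.0% of its CpGs were read on both strands, against 9.03 to 10.5% in the other 3, so results are also given without it where they moved. The share of reads on the X chromosome was 2.81 to 2.97% in the 4 XY libraries and 3.45 to 4.30% in XX ESC and XX MEF, so the 4 XY libraries lay under all 8 XX libraries. One library labelled female, SSEA1+ 2, had 2.81%. Tile levels correlated at 0.963 between the 2 XY ESC libraries, at 0.965 between the 2 XY MEF libraries and at 0.843 to 0.856 across the cell types, over the 68762 tiles, which are not independent.

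Methylation was slightly lower in XY ESC over the autosomes as a whole. The mean over 551936 CpGs with 5 or more reads in all 4 libraries was 48.5% and 48.8% in XY ESC and 53.3% and 53.1% in XY MEF. The groups did not overlap, and the difference of means was -4.58 points (48.6 ± 0.231 in XY ESC, 53.2 ± 0.135 in XY MEF; SD, n = 2 each; 2-sided exact permutation test, p = 0.333, the smallest value that 2 against 2 can give). With each library's own CpGs the difference was -1.28 points, and weighted by reads -3.21 points, so its size depends on which CpGs are averaged. The scale changed at the top and in the middle. CpGs at 20 to 80% made up 27.0% and 26.1% in XY ESC, against 18.5% and 20.7% in XY MEF. CpGs at 80% or more made up 35.7% and 36.5% in XY ESC and 44.9% and 43.5% in XY MEF, and CpGs under 20% made up 37.3% and 37.4% in XY ESC and 36.6% and 35.8% in XY MEF.

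Tiles were tested with a quasi-binomial model of the read counts. A tile is called lower or higher in XY ESC at a Benjamini-Hochberg adjusted p under 0.05 over all tiles and a difference of group means of at least 20 points. By that rule 5976 tiles were lower (8.69% of those tested) and 1010 were higher (1.47%), a ratio of 5.92. The median difference was -45.2 points in the lower tiles, 45.8 points in the higher tiles and -0.64 points over all tiles. The count depends on the model and on which CpGs are read. A tile sums each library's own CpGs, and with only the CpGs read in all 4 libraries 2736 tiles were lower and 274 higher. Leaving out any 1 library left no call at the adjusted threshold, with 7799 to 13082 tiles at an unadjusted p under 0.05, against 20381 with all 4. With the spread between replicates learned only from tiles of intermediate level (5 to 95%), a change made after seeing the data, 9923 tiles were lower and 3187 higher, and leaving out 1 library then gave 4499 to 9276 lower and 880 to 3080 higher; without XY MEF 1 these were 5993 and 1536.

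The share of tiles lost was highest among CpG-rich tiles that were methylated in fibroblasts, and gains lay mostly on CpG-poor tiles of low or intermediate level. Tiles were divided by the CpGs read in them. By count, 1904 lower tiles had 3 to 9 CpGs, 2438 had 10 to 19, 1121 had 20 to 29 and 513 had 30 or more; outside the recurring spacings described below, 1567 of 2455 had 3 to 9. Among tiles of 3 to 9 CpGs, 4.36% were lower and 1.98% higher. At 10 to 19 CpGs these shares were 19.2% and 0.936%, and at 20 to 29 CpGs 20.3% and 0.398%. At 30 to 49 CpGs 10.5% were lower and 0.0639% higher, and at 50 or more CpGs 0.834% and 0.0463%. The mean tile level was lower in XY ESC in every class (SD, n = 2 each). At 3 to 9 CpGs it was 68.5 ± 0.370% in XY ESC and 70.9 ± 0.173% in XY MEF (-2.48 points), and at 10 to 19 CpGs 34.5 ± 0.451% in XY ESC and 45.8 ± 0.283% in XY MEF (-11.3 points). At 20 to 29 CpGs it was 15.3 ± 0.233% in XY ESC and 24.97 ± 0.355% in XY MEF (-9.67 points), and at 30 to 49 CpGs 6.81 ± 0.0804% in XY ESC and 11.5 ± 0.412% in XY MEF (-4.72 points). At 50 or more CpGs both cell types had little, 1.13 ± 0.0201% in XY ESC and 1.47 ± 0.426% in XY MEF (-0.347 points), a difference under the SD of XY MEF. In each class both XY ESC libraries lay under both XY MEF libraries, and each exact permutation p was 0.333, as was its adjusted value over the 5 classes. CpG-rich tiles also held more reads, with a median of 48 in the sparsest library at 3 to 9 CpGs and 268 at 50 or more, and the part of depth in the calls was not tested. Without a test, 13.7%, 28.6%, 22.9%, 11.3% and 0.973% of tiles in these 5 classes were at least 20 points lower, and 8.90%, 2.70%, 0.905%, 0.298% and 0.232% at least 20 points higher.

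Most CpG-rich tiles had little methylation to lose, so the start level in XY MEF was taken into account. Of the 6856 dense tiles (30 or more CpGs), 6218 were under 20% in XY MEF. Among tiles at 80% or more in XY MEF, the share called lower climbed with CpG number, from 5.63% of 24695 at 3 to 9 CpGs to 39.8% of 5267 at 10 to 19, 77.8% of 1313 at 20 to 29, 89.3% of 496 at 30 to 49 and 5 of 5 at 50 or more. The mean levels in these classes were 81.6% in XY ESC and 89.8% in XY MEF at 3 to 9 CpGs, but 46.5% in XY ESC and 88.0% in XY MEF at 30 to 49. Among tiles under 20% in XY MEF the share called higher ran the other way. It was 6.50% of 5090 at 3 to 9 CpGs, 1.28% of 5635 at 10 to 19, 0.562% of 3912 at 20 to 29, 0.0735% of 4083 at 30 to 49 and 0.0468% of 2135 at 50 or more. Over all classes, gains were most frequent in tiles that started at 20 to 40% (10.1% of 2811) and 40 to 60% (6.94% of 3444), against 2.06% of those under 20%. Losses in these 2 middle classes were 5.48% and 6.07%, so over all CpG numbers tiles of intermediate level moved in both directions. At 20 to 49 CpGs the calls were losses only, 35 of 210 at 20 to 40% and 34 of 75 at 40 to 60%, with 0 higher. At 50 or more CpGs 7 of 12 and 3 of 4 were lower and 0 higher. Dividing tiles by the XX MEF level, which took no part in the test, gave 16.3% lower at 80% or more and 2.11% higher under 20%, against 15.6% and 2.06% by the XY MEF level. The climb of losses with CpG number among tiles at 80% or more was also seen with shared CpGs only (1.71% at 3 to 9 CpGs, 72.3% at 30 to 49), with limma (3.50% and 52.6%), with the spread from tiles of 5 to 95% (12.54% and 92.3%) and in that fit without XY MEF 1 (5.95% and 82.6%).

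**Figure D1:**
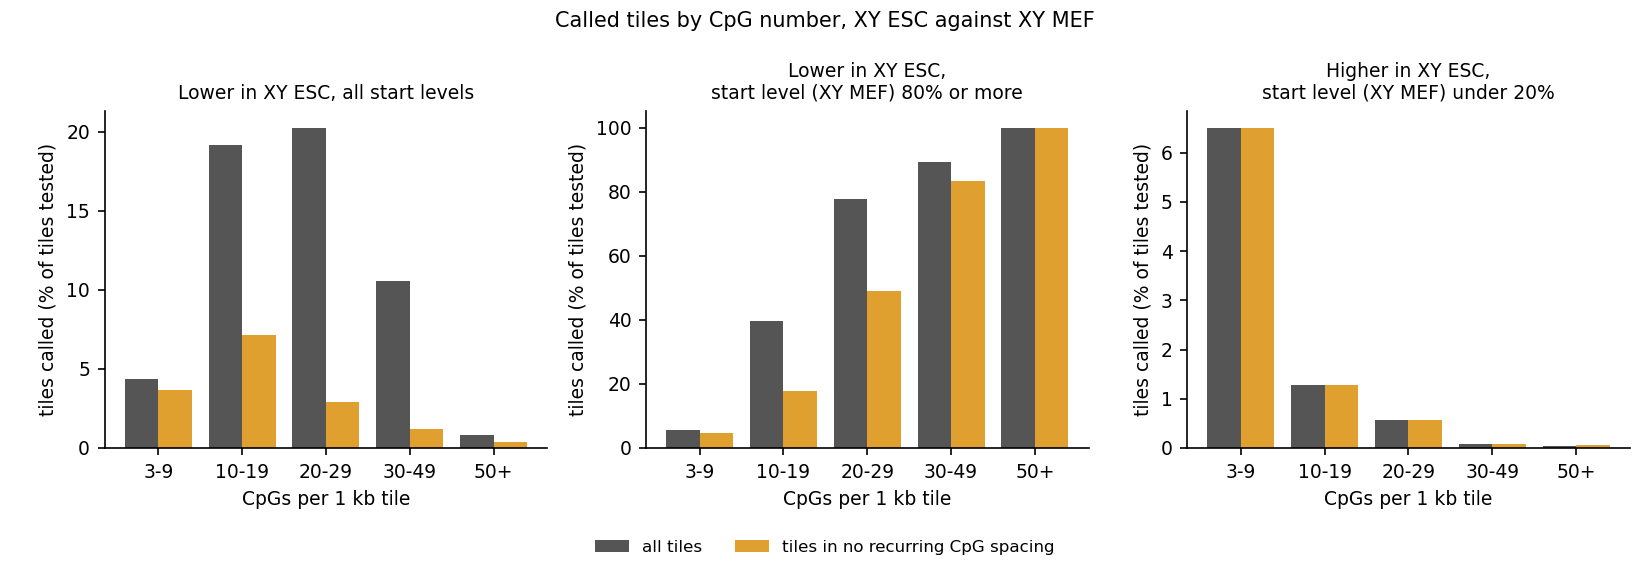
Share of tiles called, in per cent of the tiles tested (vertical axes start at 0 and differ), by the number of CpGs in the tile, for all tiles (grey) and for tiles in no recurring CpG spacing (orange). Left, tiles lower in XY ESC at any start level; middle, tiles lower in XY ESC among those at 80% or more in XY MEF, where the share climbs from 5.63% to 100% in all tiles; right, tiles higher in XY ESC among those under 20% in XY MEF, where it drops from 6.50% to 0.0468%.

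Most of the CpG-rich losses lay in tiles that share a recurring arrangement of CpGs. A run of 7 consecutive CpGs was called recurring when its 6 gaps, read on either strand, were the same in 10 or more tiles, and runs found together in the same tiles were joined into families. Among the 68762 tiles, 5930 held a recurring spacing. By the quasi-binomial model 3521 of these were lower and 0 higher (4307 and 0 at an unadjusted p under 0.05 and 20 points). Among the 62832 others 2455 were lower (3.91%) and 1010 higher (1.61%). A higher call needs an XY MEF level of 80% or less, and 5079 of the 5930 were at 80% or more, so few could be called higher. At 80% or more, 3315 of these 5079 (65.3%) were lower, against 1638 of 26697 others (6.14%). CpG number differed between these sets: 23862 of the 26697 others had 3 to 9 CpGs, against 833 of the 5079. At 3 to 9 CpGs 36.9% were lower in the recurring spacings and 4.54% outside them, and at 10 to 19 CpGs 62.7% and 17.7%. At 20 to 29 CpGs these shares were 81.0% and 48.9%, and at 30 to 49 CpGs 89.5% of 478 and 83.3% of 18. The 4 largest families, A to D, held 4779 tiles on all 19 autosomes, of which 3413 were lower, or 57.1% of all lower tiles. Copies this alike can exchange reads in alignment, so single copies are not named and the values describe families. No repeat annotation on mm9 was used, and which repeated element, if any, a family belongs to was not analysed here.

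Family A was the largest and changed most. Its leading run has CpGs at gaps of 3, 7, 13, 4, 21 and 12 bases, and it covered 1884 tiles with a median of 17 CpGs. The median tile level was 37.2% and 37.1% in XY ESC and 89.2% and 87.1% in XY MEF. In all 1884 tiles both XY ESC libraries lay under both XY MEF libraries, and 1792 (95.1%) were called. The 10th to 90th percentiles of the tiles, 30.8 to 43.5% in XY ESC and 84.5 to 90.7% in XY MEF, did not meet, so the copies as a group stood at an intermediate level in XY ESC and not at 0. Along the run, with reads summed over 1988 copies, the levels of the 7 CpGs in XY ESC ranged from 24.0% to 46.1% and in XY MEF from 76.0% to 94.5%. The last CpG had the widest gap, with 23.5% and 24.6% in XY ESC and 91.8% and 90.9% in XY MEF.

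Family B, whose sequence is shown above, changed least of the 4. It covered 1258 tiles, with median levels of 69.7% and 69.7% in XY ESC and 91.8% and 89.6% in XY MEF. The median difference was -20.9 points, close to the 20 points that a call needs, and 389 tiles (30.9%) were called, although both XY ESC libraries lay under both XY MEF libraries in 1241. The CpG 23 bases into the run, at 78.4% and 81.6% in XY ESC and 94.7% and 94.8% in XY MEF, kept most. Family C (976 tiles) had medians of 48.8% and 49.2% in XY ESC and 82.6% and 83.6% in XY MEF, and 667 tiles were called. The CpG 10 bases into the run was at 27.8% and 28.8% in XY ESC, against 80.6% and 82.3% in XY MEF, while the next, 11 bases on, was at 58.5% and 58.3% in XY ESC and 86.4% and 88.1% in XY MEF. Family D (661 tiles) had 47.7% and 43.8% in XY ESC and 87.7% and 87.9% in XY MEF, and 565 tiles were called. The libraries of each group lay within 4 points of each other in these 3 families, far under the differences between groups.

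Families E and F changed little. Family E, runs of CpGs at gaps of 3 bases in 220 tiles with a median of 51.5 CpGs, was free of methylation in both cell types, with medians of 0% and 0% in XY ESC and 0.119% and 0.464% in XY MEF, and 1 tile was called. Family F (206 tiles) was methylated in both, at 93.3% and 93.5% in XY ESC and 94.0% and 95.1% in XY MEF, and 0 tiles were called by the quasi-binomial model or by limma, with 1 of 206 at an unadjusted p under 0.05. Over 15 fits the median difference of family A stayed between -51.6 and -49.7 points, of B between -22.0 and -19.8, of C between -34.5 and -32.5, of D between -43.6 and -39.9 and of F between -1.94 and -1.04. Limma, the call threshold and the spread from tiles of 5 to 95% do not enter a median difference, so they repeated its value. The share of tiles called was less stable. Over the same 15 fits it ran from 71.3 to 99.8% in A, 0.238 to 62.3% in B, 1.23 to 91.5% in C and 29.2 to 95.01% in D. Among these fits the lowest values came from limma for B, C and D and from shared CpGs for A. The 15 leave out the fit with replicate numbers as a block and the fits without 1 library with the spread from all tiles, which called no tile.

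**Figure D2:**
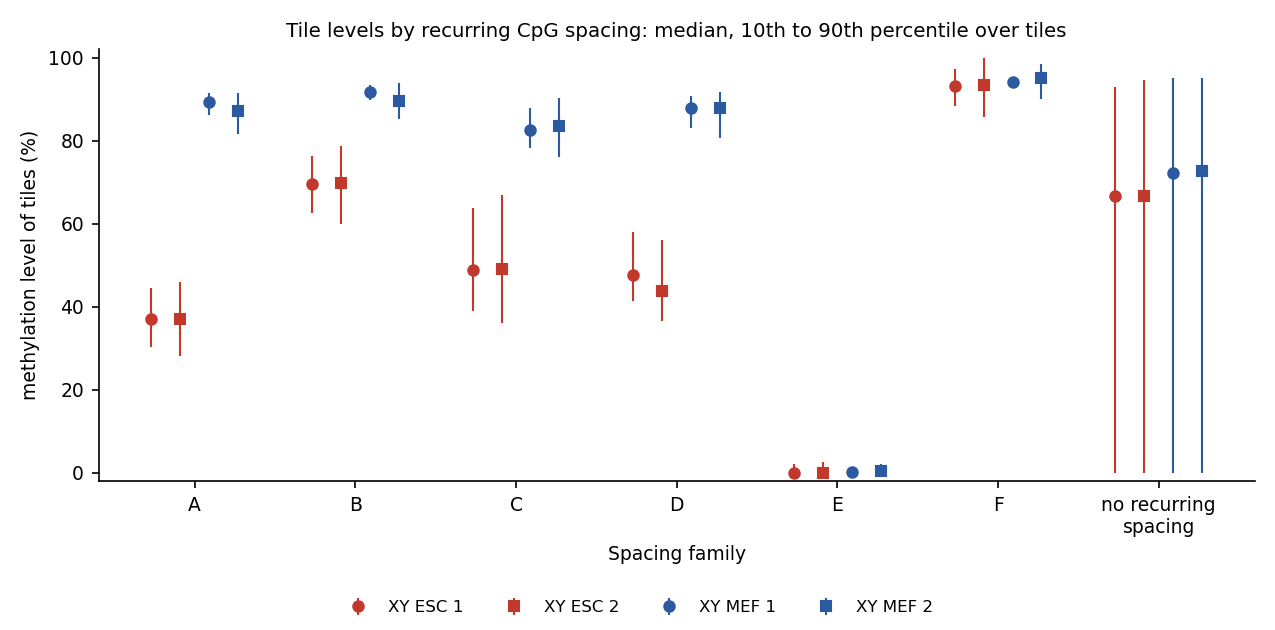
Methylation level in per cent of the tiles of spacing families A to F and of tiles in no recurring spacing; points are medians over tiles in each library (XY ESC red, XY MEF blue) and lines run from the 10th to the 90th percentile. Families A to D are lower in both XY ESC libraries, with A at 37.2% and 37.1% in XY ESC and 89.2% and 87.1% in XY MEF, whereas the ranges of E and F overlap between the groups.

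**Figure D3:**
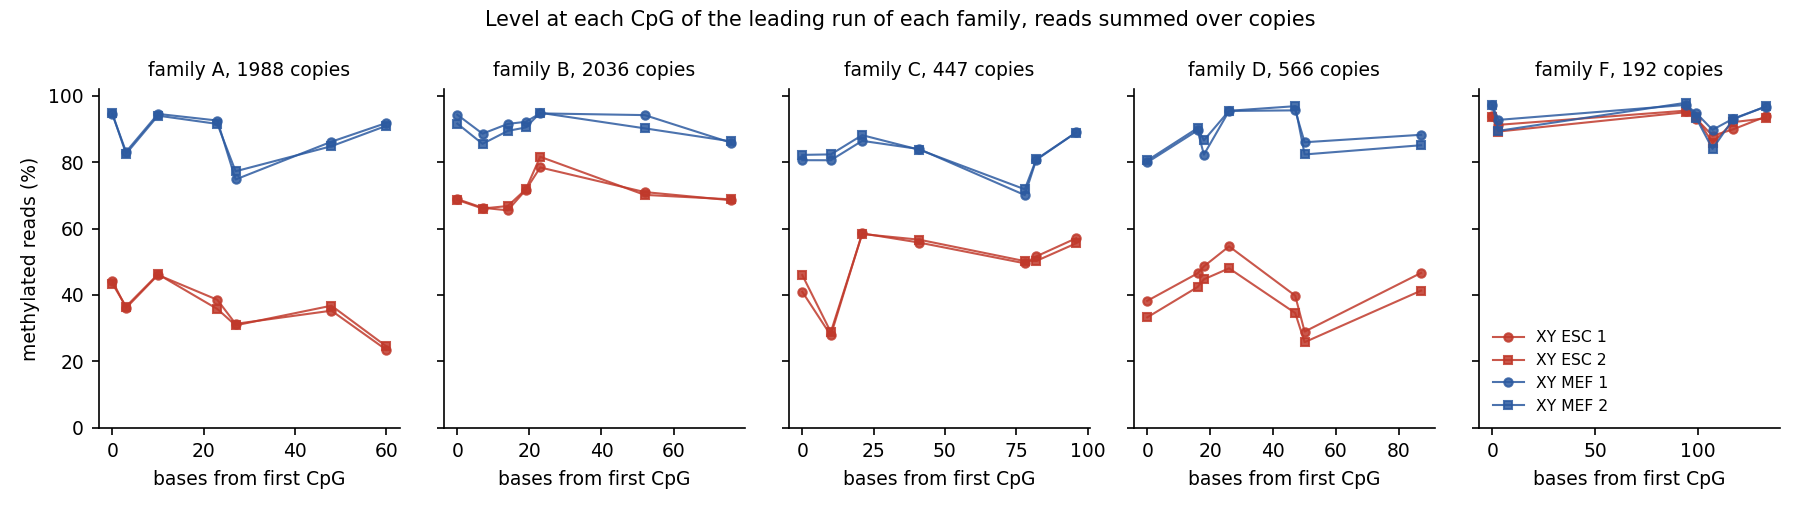
Methylated reads in per cent at each of the 7 CpGs of the leading run of families A, B, C, D and F, against the distance in bases from the first CpG, with reads summed over the copies; lines join the CpGs of 1 library (XY ESC red, XY MEF blue). Levels differ between the CpGs of a run, in family C from 28.3% to 58.4% in XY ESC, and the libraries of a group follow each other closely.

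Outside the recurring spacings the relation to CpG number held but rested on few tiles at the dense end. Among tiles at 80% or more in XY MEF, 4.54% of 23862 were lower at 3 to 9 CpGs, 17.7% of 2684 at 10 to 19, 48.9% of 131 at 20 to 29, 15 of 18 at 30 to 49 and 2 of 2 at 50 or more. The mean level in the class of 30 to 49 CpGs was 40.4% in XY ESC and 92.1% in XY MEF. Over all start levels, 56 of 5981 dense tiles were lower, and 4 were higher. These 56 had a median of 9.21% in XY ESC and 57.7% in XY MEF, and 42 of them were under 20% in XY ESC. Of the 3413 called tiles of families A to D, 3 were under 20% in XY ESC, with a median of 41.3%. These family tiles were of all CpG numbers and had a median of 88.0% in XY MEF, so the 2 sets are not matched. Among dense tiles at 80% or more in XY MEF, called or not, the mean in XY ESC was 38.4% outside the recurring spacings (20 tiles). In families A to D it was 46.7% (481 tiles).

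Tiles with large losses were chosen by a fixed rule of size with at least 20 reads in every library, and those named here were at 0 to 19.4% in XY ESC and at 84.0 to 100% in XY MEF. At chr14:55251001-55252000 (25 CpGs, 8201 bases from the placed promoter of Cdh24) the level was 0.287% and 0% in XY ESC and 93.2% and 84.0% in XY MEF, a difference of -88.5 points (adjusted p = 0.0237 in the quasi-binomial model). All 14 CpGs read in every library were lower in both XY ESC libraries than in both XY MEF libraries. At chr5:93371001-93372000 (53 CpGs) it was 10.9% and 3.63% in XY ESC and 87.7% and 89.8% in XY MEF, and at chr12:72419001-72420000 (35 CpGs) 13.9% and 3.62% in XY ESC and 94.2% and 91.8% in XY MEF. At chr10:80069001-80070000 (20 CpGs, 44.7 kb from Rexo1) it was 5.15% and 6.14% in XY ESC and 91.9% and 95.7% in XY MEF. The 3 leading CpG-poor tiles, at chr8:44391001-44392000, chr3:41359001-41360000 and chr11:107547001-107548000, were at 0 to 5.56% in XY ESC and at 96.2 to 100% in XY MEF. The rule also named chr12:109153001-109154000 (10 CpGs, 0% and 0% in XY ESC, 86.9% and 96.9% in XY MEF) and chr2:164333001-164334000 (35 CpGs, 15.4% and 19.4% in XY ESC, 89.8% and 100% in XY MEF).

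Lower tiles outside the recurring spacings often lay beside another lower tile. Of 846 such tiles with a tested neighbour, 356 (42.1%) had a neighbour that was also lower, against 689 of 19412 (3.55%) of the tiles that were not lower. Among tiles at 80% or more in XY MEF these shares were 266 of 542 (49.1%) and 356 of 4018 (8.86%). Neighbouring tiles share libraries and local depth, and the shares are a description with no test. Among windows of 100 kb, chr7:4900001-5000000 and chr7:52300001-52400000 were tied for the most losses, with 7 lower tiles each. In the first, 7 of 17 tiles were lower, between positions 4945001 and 4984000. Mean levels over its called tiles were 19.3% and 23.0% in XY ESC and 80.6% and 85.0% in XY MEF. The first window holds the placed promoter of Zfp784, a zinc finger gene. The window chr7:52300001-52400000 had 7 of 18 tiles lower, at 42.8% and 46.5% in XY ESC and 90.9% and 93.5% in XY MEF, and holds that of Nosip, which encodes a nitric oxide synthase-interacting protein. In the third, chr3:6300001-6400000, 6 of 9 tiles were lower and all 6 lay in recurring spacings, at 70.4% and 68.2% in XY ESC and 91.9% and 90.4% in XY MEF. By chromosome, the share of tiles lower ranged from 5.94% on chromosome 19 to 11.1% on chromosome 3, and outside the recurring spacings from 3.06% to 4.88%.

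Few promoter tiles were called, and most had little methylation to lose. Of 31396 RefSeq promoters on autosomes, 5268 could be placed once on the files' CpGs with at least 8 CpGs matched, and 5264 of these lay on their annotated chromosome and were used. A promoter tile was one that overlapped the gene start or the 1 kb before it. The 5291 promoter tiles of 4517 genes were under 20% in XY MEF in 95.8% of cases, and 25 (0.472%) were lower and 13 (0.246%) higher, against 8.69% and 1.47% of all tiles. Of the 57 promoter tiles at 80% or more in XY MEF, 9 were lower (15.8%), and 21 were at 80% or more in both cell types. At that level 15.6% of all tiles were lower, but 6.14% (1638 of 26697) of those in no recurring spacing. The recurring families A to D held 0 of the promoter tiles. CpG number was not matched in these shares. Because a promoter needed a single place, promoters within recurring spacings may be missing from these counts. With the spread learned from tiles of 5 to 95%, 62 were lower and 42 higher. Fits with this spread that leave out 1 library have 1 left in that group, so a call kept in them is no replication. Of the 25 lower tiles, 20 were still called in each of the 4 fits of that kind that left out 1 library, against 3 of the 13 higher tiles. Among lower tiles the call was lost without XY ESC 1 for Clns1a with Rsf1os2, Vmn2r29, Sart1 and Ddx17 (Ddx17 also without XY MEF 2) and without XY MEF 1 for Hspb9. With only the CpGs read in all 4 libraries, 8 of the 25 and 2 of the 13 were still called.

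The lower tiles included 3 of the 4 tested genes of the germline list, Mael, Hormad1 and Slc25a31. Dmrtb1, Zglp1 and Btbd18, also described here, were not on that list and were picked after their values were seen. Mael, which acts in transposon silencing in the germ line, was at 32.5% and 18.3% in XY ESC and 92.1% and 89.0% in XY MEF (-65.2 points, adjusted p = 0.0262 in the quasi-binomial model). Hormad1 was at 33.5% and 32.7% in XY ESC and 83.8% and 89.5% in XY MEF, Dmrtb1 at 16.9% and 26.4% in XY ESC and 83.5% and 85.9% in XY MEF, and Zglp1 at 36.0% and 37.8% in XY ESC and 81.7% and 79.9% in XY MEF. In all of these both XY ESC libraries lay well under both XY MEF libraries, at an intermediate level. Slc25a31 kept more, with 56.6% and 61.1% in XY ESC and 90.5% and 87.3% in XY MEF. So did the tile shared by Btbd18, a factor for transcription of piRNA precursors in testis, and Ctnnd1, which encodes p120 catenin, with 58.1% and 57.7% in XY ESC and 94.2% and 91.8% in XY MEF. These 6 tiles were called whichever library was left out of the fit with the spread from tiles of 5 to 95%. Mael and Dmrtb1 lost the call with shared CpGs only, and Zglp1, Slc25a31 and the tile of Btbd18 lost it with limma, while Hormad1 kept it in both. Tex101, a germ-cell surface protein, was methylated in both cell types at 96.5% and 91.7% in XY ESC and 84.3% and 91.7% in XY MEF, and was not called.

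The difference was also seen site by site, over the 250 bases before and the 50 bases after the gene start. In the Zglp1 sequence, the CpG at base -83 from the gene start had 0% and 0% in XY ESC (21 and 9 reads) and 66.7% and 83.3% in XY MEF (6 and 6 reads). A neighbour at base -90 had 47.6% and 77.8% in XY ESC and 100% and 100% in XY MEF, so adjacent CpGs of 1 promoter differed in XY ESC. All 9 CpGs of the Dmrtb1 promoter read in all 4 libraries were lower in both XY ESC libraries than in both XY MEF libraries, as were 7 of 8 in Hormad1, 4 of 4 in Zglp1, 3 of 3 in Mael and 2 of 3 in Slc25a31.

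The other lower promoter tiles were on none of the lists. Tmem59l, which encodes a transmembrane protein of neurons, was called in both of its tiles, at 8.19% and 2.04% in XY ESC and 55.2% and 64.5% in XY MEF in the first and at 5.73% and 6.25% in XY ESC and 44.2% and 52.3% in XY MEF in the second. Marveld2, the tight-junction protein tricellulin, had 0% and 0% in XY ESC and 28.96% and 35.9% in XY MEF; 0 of 239 and 0 of 105 reads allow up to 1.26% and 2.86%, for counting error only. Hspb9, a testis heat shock protein, had 0.266% and 1.99% in XY ESC and 24.1% and 20.7% in XY MEF. Rab8a, a GTPase of vesicle traffic, had 1.72% and 1.74% in XY ESC and 27.3% and 29.7% in XY MEF. The remaining lower tiles, among them those of Gabpb1, Gcsh, Rbx1, Atf6b, Chtf8, Sart1 and Ddx17, ranged from 0 to 37.7% in XY ESC and from 19.6 to 100% in XY MEF. For Vmn2r29 the only CpG read in all 4 libraries was higher in XY ESC, against the direction of its tile.

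**Figure D4:**
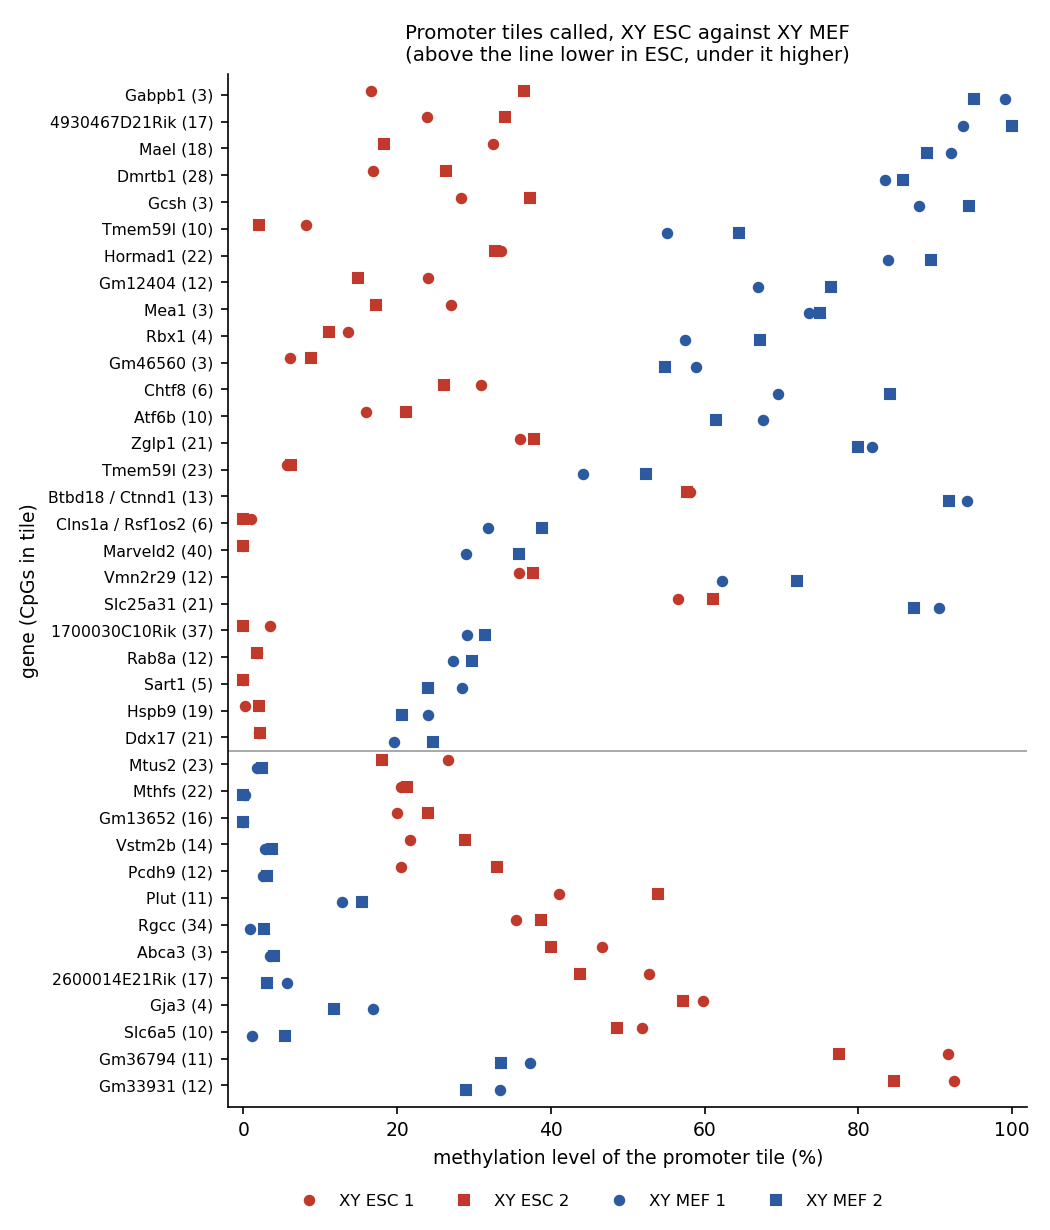
Methylation level in per cent of the 38 promoter tiles called, 25 lower (above the grey line) and 13 higher (under it) in XY ESC, with the number of CpGs in the tile after the gene name; each point is 1 library (XY ESC red, drawn above; XY MEF blue). In every tile the 2 XY ESC points and the 2 XY MEF points do not overlap.

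Most gained promoters started from little methylation. Slc6a5 was at 51.9% and 48.6% in XY ESC and 1.15% and 5.37% in XY MEF (47.0 points, adjusted p = 0.0324 in the quasi-binomial model), and its CpG at base -140 reached 87.3% and 81.8% in XY ESC against 0% and 19.4% in XY MEF. Rgcc, a regulator of the cell cycle, was at 35.4% and 38.7% in XY ESC and 0.906% and 2.65% in XY MEF over 34 CpGs. The 2 neighbouring tiles of 2600014E21Rik and Gm13652 on chromosome 2 were at 52.8% and 43.8% in XY ESC and 5.68% and 3.03% in XY MEF, and at 20% and 24% in XY ESC and 0% and 0% in XY MEF. Mthfs, a folate enzyme, had 20.5% and 21.3% in XY ESC and 0.145% and 0% in XY MEF, and Pcdh9, a protocadherin, 20.5% and 33.0% in XY ESC and 2.54% and 3.03% in XY MEF. Mthfs, Rgcc and Slc6a5 were the 3 still called whichever library was left out. The call of 2600014E21Rik was lost without XY ESC 1 and without XY MEF 1, that of Gm13652 without XY MEF 1, that of Pcdh9 without XY ESC 2 and without XY MEF 1, and those of Gm33931 and Gm36794 without XY ESC 1. Only 2 of the 13, Gm33931 (92.4% and 84.6% in XY ESC, 33.4% and 28.97% in XY MEF) and Gm36794 (91.7% and 77.5% in XY ESC, 37.2% and 33.5% in XY MEF), passed 75% in XY ESC.

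Lists of genes were read only where a promoter could be placed. Of 20 pluripotency genes, 4 were tested (Sox2, Klf4, Tfcp2l1 and Fgf4) and 0 were called by the quasi-binomial model, with a median difference of -0.842 points over 5 tiles. All 5 tiles were at 0 to 4.30% in every library and 0 had an unadjusted p under 0.05, so these placed promoters were unmethylated in both cell types. Of 18 germline genes, 4 were tested and 3 were lower (Mael, Hormad1 and Slc25a31), with a median of -41.8 points. Of 15 fibroblast genes 1 was tested: Twist2, a mesenchymal transcription factor, had 25.5% and 24.8% in XY ESC and 4.98% and 8.96% in XY MEF in its CpG-rich promoter (adjusted p = 0.0540 in the quasi-binomial model, not called). The background over all promoter tiles was 0.472% lower and 0.246% higher, with a median of -0.0136 points. The 4 germline tiles were all above 80% in XY MEF, where 9 of 57 promoter tiles (15.8%) were lower, these 3 included.

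A letter search chosen after seeing these results compared the 250 bases before the start. CACGTG, which reads the same on both strands, was found before 10 of the 26 genes with a lower promoter tile (38.5%), 0 of the 13 with a higher one and 413 of the 4517 tested (9.14%). Its holders included Mael, Hormad1, Zglp1 and Slc25a31, and 2 of the 10, Clns1a and Rsf1os2, share 1 tile. TCCCGC or its reverse GCGGGA was found before 10 of the 26 (38.5%), 3 of the 13 (23.1%) and 1884 of the 4517 (41.7%). These are matches of letters with no test, and binding of any factor was not measured. Of the promoter tiles tested, 95.8% were under 20% in XY MEF, where no lower call is possible. The shares were not matched for start level, so they cannot separate promoters that lost methylation from promoters methylated in fibroblasts.

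Gains lay mostly in CpG-poor tiles and were large. Of the 1010 higher tiles, 865 had 3 to 9 CpGs and 4 had 30 or more. Their median was 82.3% in XY ESC and 24.6% in XY MEF, and 552 reached 80% in XY ESC. In the recurring spacings 0 were higher, but 5079 of their 5930 tiles were at 80% or more in XY MEF, with hardly any room for such a call. At chr13:73404001-73405000 (7 CpGs, 63.5 kb from the placed promoter of Mrpl36) the level was 93.0% and 100% in XY ESC and 5.31% and 2.67% in XY MEF. At chr7:143694001-143695000 (15 CpGs) it was 83.3% and 92.0% in XY ESC and 9.55% and 15.3% in XY MEF, and all 10 shared CpGs were higher in both XY ESC libraries. The dense gains were smaller: chr2:28773001-28774000 (44 CpGs) had 25.8% and 27.8% in XY ESC and 1.48% and 2.29% in XY MEF, and chr5:130925001-130926000 (39 CpGs) 19.5% and 27.0% in XY ESC and 0.334% and 0.613% in XY MEF. Of 226 higher tiles with a tested neighbour, 39 (17.3%) had one that was also higher, against 201 of 22800 (0.882%) of the tiles that were not higher. The window chr8:123400001-123500000 held 8 higher tiles of 11 tested, at 73.5% and 75.7% in XY ESC and 25.7% and 23.0% in XY MEF over the called tiles, with no placed promoter in it. In the window chr4:136400001-136500000, 26.1 kb from the placed promoter of the ephrin receptor gene Ephb2, 4 of 11 tiles were higher, at 55.7% and 57.9% in XY ESC and 10.7% and 13.9% in XY MEF.

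The change in XY cells was then compared with that in XX cells over 45222 tiles measured in all 12 ESC and MEF libraries, by an interaction term in the same model. That term is tested on the logit scale, so its p-values do not test the differences in points printed beside them. The ESC minus MEF difference was more positive in XY than in XX cells (less lost or more gained, adjusted p under 0.05 and at least 20 points) in 9910 tiles, 21.9%, and more negative in 68, 0.15%. The median difference was -0.61 points in XY and -16.4 points in XX cells. Of 5074 tiles lower in XY ESC, 91.1% were at least 20 points lower in XX ESC than in XX MEF, against 44.5% of all tiles, and 6.60% differed more positively in XY cells. Start level was not matched in these shares, and 4953 of the 5976 lower tiles were at 80% or more in XY MEF. In no recurring spacing, 92.0% of 1757 lower tiles were at least 20 points lower in XX cells. Among all tiles in no recurring spacing at 80% or more in XY MEF, this share was 78.1% of 14589. Of 609 tiles higher in XY ESC, 35.1% were at least 20 points higher in XX cells, against 1.17% of all tiles, and 65.7% differed more positively in XY cells, against 21.9% of all tiles. These tiles were chosen on the XY libraries, which enter both figures. With only libraries like those of XY ESC in the share of CpGs read on both strands (8 of the 12), 1 XY MEF and 1 XX MEF library were left. The median difference over 58177 tiles was then -0.847 points in XY and -17.1 points in XX cells. With 1 library in each MEF group, this fit cannot show whether the calls depend on the kind of library. Without XY MEF 1, 4878 tiles were more positive.

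The spacing families separated in this comparison. Family A lost more in XX cells, with a median change of -50.6 points in XY and -63.8 points in XX cells, and 98 of 1768 tiles (5.54%) were called more positive in XY. Family B changed about equally, by -21.0 points in XY and -17.5 points in XX cells, and was one where XX ESC were not the lower: of 1171 tiles 0 were more positive and 1 more negative in XY. Family F was the opposite, with -1.23 points in XY and -44.8 points in XX cells, and 83 of 89 tiles (93.3%) were called more positive in XY, against 21.9% of all tiles. Among tiles at 80% or more in XY MEF and in no recurring spacing this share was 36.6%. Their median change was -4.64 points in XY and -30.4 points in XX cells. Over the 85 family F tiles measured in all 18 libraries the medians were 93.5% and 94.1% in XY ESC and 44.9 to 49.2% in the 4 XX ESC libraries, 68.2% and 68.3% in XX iPSC, and 90.8 to 95.2% in the 6 MEF libraries. In the XY and XX ESC libraries 9.03 to 11.7% of CpGs were read on both strands; the part of depth, line and culture in this difference was not tested.

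Among promoters, XX ESC were at 5.05 ± 2.62 for Hormad1, 8.86 ± 3.84 for Zglp1 and 25.7 ± 3.89 for Slc25a31 (SD, n = 4), under both XY ESC libraries given above. Hormad1 lost 27.2 points less in XY than in XX cells (adjusted p = 0.000639 in the quasi-binomial interaction test over all tiles), Zglp1 35.4 points less (adjusted p = 0.000580) and Slc25a31 31.8 points less (adjusted p = 0.0184). Tex101, methylated in both XY cell types, was at 59.3 ± 9.01 in XX ESC and 91.6 ± 2.72 in XX MEF (adjusted p = 0.00108 in the same test). For Mael and Dmrtb1 the difference between the changes was -0.639 and 7.57 points (adjusted p = 0.437 and 0.116), and a p above the threshold does not show that they changed alike. Tmem59l went the other way in its second tile, losing 31.3 points more in XY cells (adjusted p = 0.00623). That tile was at 8.17 ± 3.38 in XX ESC and 19.1 ± 3.14 in XX MEF (SD, n = 4 each).

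The other groups were then read over the tiles called in XY cells. Over 1226 tiles lower in XY ESC, in no recurring spacing and measured in all 18 libraries, the median was 35.3% and 35.7% in XY ESC, 16.9 to 18.2% in XX ESC, 27.2% and 25.7% in XX iPSC, 77.0% and 73.9% in SSEA1+ cells, 80.4% and 80.2% in SSEA1- cells, 81.6 to 82.7% in XX MEF and 85.0% and 84.8% in XY MEF. XX ESC and XX iPSC lay under XY ESC at these tiles, and both kinds of SSEA1-sorted cells lay nearer to the fibroblasts than to XY ESC. Over 435 tiles higher in XY ESC it was 74.8% and 76.2% in XY ESC, 36.6 to 37.5% in XX ESC, 57.1% and 55.6% in XX iPSC, 26.5% and 20.4% in SSEA1+ cells, 14.1% and 14.3% in SSEA1- cells, 15.2 to 21.8% in XX MEF and 19.2% and 19.7% in XY MEF. The order of the groups other than XY ESC and XY MEF was not tested over these tiles, and the XX MEF and XX iPSC libraries differ from XY ESC in depth and in the share of CpGs read on both strands, whose part in these values was not tested.

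**Figure D5:**
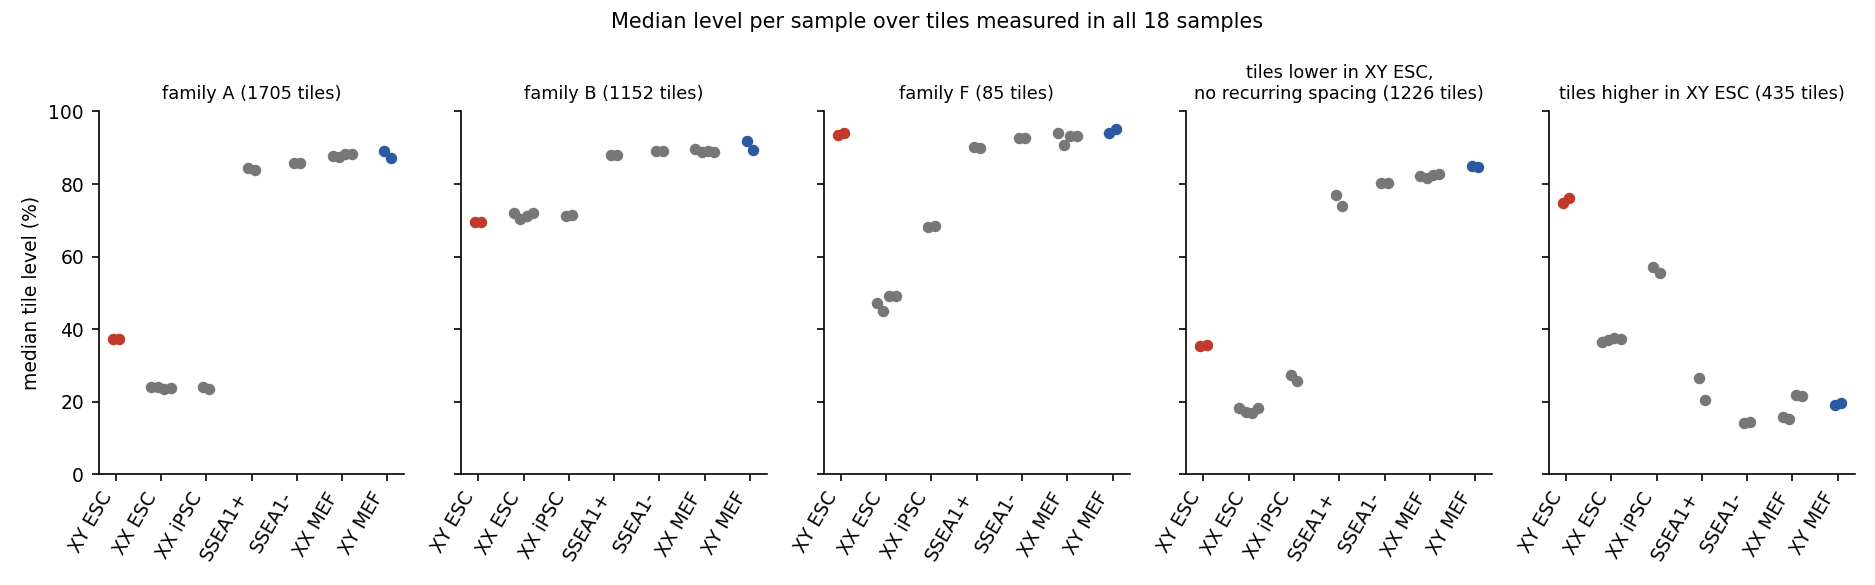
Median methylation level in per cent per library over tiles measured in all 18 libraries, for spacing families A, B and F, for tiles lower in XY ESC outside recurring spacings and for tiles higher in XY ESC; each point is 1 library, with XY ESC in red, XY MEF in blue and the other groups in grey. XX ESC lie under XY ESC in family A, beside them in family B and far under them in family F, at 44.9 to 49.2% in XX ESC and 93.5% and 94.1% in XY ESC.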

How the data were processed

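Reduced representation bisulfite sequencing files of 18 samples gave, per CpG and strand, the counts of methylated and of all reads, as deposited by the authors. A score column, in the files as deposited by the authors, equals 1000 times the methylated share and was not used. The genome build is mm9, per the submitters' processing notes. The aligner was not given in the sources used here, and neither was the methylation caller. Chromosome Y was not analysed here.

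Groups were taken from the labels. Both strands of a CpG were added, CpGs with 5 or more reads in a library were kept and reads were summed over tiles of 1 kb with 3 or more such CpGs in all 4 libraries. The CpG number of a tile counts the CpGs with 5 or more reads in any of the 4. Each tile was tested with a quasi-binomial logistic model of methylated and unmethylated reads on group, with the dispersion moderated across tiles (limma 3.58.1, R 4.3.3), set to at least 1, an F test and Benjamini-Hochberg adjustment over all tiles. The XY and XX changes were compared by the interaction term of the same model, on the logit scale, over 12 libraries. Single values were tested with 2-sided exact permutation tests over all divisions of the libraries. The tile tests were checked on simulated counts, where the spread from all tiles gave fewer calls than that from tiles of 5 to 95%. Intervals for levels of 0 use 3 counts and cover counting error only, since reads without molecular identifiers are not independent molecules.

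Named tiles are, in each direction and in each of 3 ranges of CpG number, the 3 called tiles with the largest difference, among those with no overlap between groups and 20 or more reads in every library, at most 1 per 100 kb; named windows are the 3 of 100 kb with the most calls in each direction. The gene lists were to be used with an mm9 annotation. None was used here, and promoters were placed instead by matching the CpG spacing of RefSeq promoters (GRCm38.p6) to the files, with at least 8 CpGs matched, so a promoter with few covered CpGs could not be placed. Tiles, lists, families and promoters were chosen with earlier results of these data known. The replicate numbers were not taken to pair the samples. Alternatives changed the read and CpG minimums, the CpGs used, the test, the spread and the libraries.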

Additional observations from a re-analysis of the deposited data

Results flagged for a closer look

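The ESC minus MEF change differed between XY and XX cells by a test of the interaction on the logit scale. Over 45222 tiles it was more positive in XY cells in 9910 and more negative in 68, by the interaction term of the quasi-binomial model at a Benjamini-Hochberg adjusted p under 0.05 and 20 points. The median change was -0.61 points in XY cells and -16.4 points in XX cells. Without XY MEF 1 the counts were 4878 and 66. The 4 XX ESC libraries and the 2 XY ESC libraries also differ in ways the labels do not give, such as line and culture, whose part was not tested. No library was found to lie apart by Dixon's rule in 10 tests of the family medians within groups of 4. Only XX ESC and XX MEF have 4 libraries, so the XY libraries were outside this check.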

How the results depend on the processing

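Groups of 2 libraries limit these results, and a fit that leaves out 1 library has 1 left in that group. Sparse tiles held fewer reads, and the part of depth in the calls was not tested. Over 103 results and 1866 recomputations, 0 changed direction, 363 tile calls were lost and 339 counts, shares or levels moved. The 5 class levels kept their direction in all 95 recomputations, but some of these could not move them. Limma, the replicate block, the call threshold and the spread from tiles of 5 to 95% do not enter a mean level, so they repeated its values. The class of 3 to 9 CpGs (-2.48 points) became -4.77 points with at least 5 CpGs per tile. That of 50 or more (-0.347) became -0.0453 without XY MEF 2 and -0.648 without XY MEF 1.

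Leaving out 1 library gave 0 to 0 calls and shares with the spread from all tiles. With the spread from tiles of 5 to 95%, an alternative added after seeing the data, it gave 4499 to 9276 tiles lower, 880 to 3080 higher, 6.75 to 8.08% of dense tiles lower, 2.61 to 5.04% higher among tiles under 20% in XY MEF and 11.9 to 22.7% lower among those at 80% or more; without XY MEF 1, 1536 were higher. The mean CpG difference (-4.58 points) was -4.69 to -4.27 points, against -1.28 with each library's own CpGs and -3.21 weighted by reads, and the interaction counts were 50 to 93 negative and 4878 to 9385 positive.

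With all libraries, tiles lower (5976) became 2736 with shared CpGs, 3088 with limma and 9923 with the spread from tiles of 5 to 95%. Tiles higher (1010) became 274, 661 and 3187 in these fits and 449 with at least 5 CpGs per tile. The share lower at 80% or more (15.6%) became 24.4% with 10 reads, 7.92% with shared CpGs, 38.3% with 5 CpGs, 8.30% with limma, 40.02% with the spread from 18 samples and 23.6% with that from tiles of 5 to 95%. The share higher under 20% (2.06%) became 0.794% with shared CpGs, 1.35% with 5 CpGs and 4.51% with the spread from tiles of 5 to 95%. Dense tiles lower (7.48%) became 4.35% with limma. The interaction had 42 negative tiles with limma and 0 and 0 with 8 libraries of 1 kind, or 3564 positive with the spread from tiles of 5 to 95%. The causes were not tested.

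The deviations of XY ESC 1 and XY MEF 1 from their groups had a correlation of 0.00389. With 2 libraries per group, this value cannot show whether equal numbers mark a shared culture or day. With a replicate block, 0 tiles were lower, 0 higher and each share was 0%, with 15389 tiles at an unadjusted p under 0.05.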
